A study of Mus musculus with 10 samples.

Results

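R-spondins are secreted ligands of the crypt niche that bind the receptors Lgr4, Lgr5 and Lgr6 and, with them, the membrane ligases Rnf43 and Znrf3. The ligases mark Frizzled, the Wnt receptor, for removal from the cell surface, and R-spondin clears the ligases, so that Wnt signalling through beta-catenin is strengthened. Lgr5, Rnf43, Znrf3 and Ascl2 are themselves Wnt target genes of crypt stem cells, while R-spondins in the gut are made mainly by mesenchymal cells around the crypt. The genes described here are 10 members of this module: the niche ligands Rspo1, Rspo2 and Rspo3, the receptors Lgr4, Lgr5 and Lgr6, the ligases Rnf43 and Znrf3, and the crypt stem cell genes Ascl2 and Olfm4. They were found by their symbols among 47069 genes of the count table, and 9 of the 10 passed the filter on low counts (Rspo2 did not, and Lgr6 passed only through DMBA+TAM).

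RNA-seq had been performed on intestinal organoids of C57BL/6 mice carrying Lgr5-EGFP-CreERT2 and Ppp2r1a flox/flox, cultured for 50 days, in 5 groups of 2 libraries. Control received saline, DMBA received dimethylbenz[a]anthracene, a polycyclic aromatic carcinogen, TAM short and TAM long received tamoxifen, and DMBA+TAM received both agents; the labels give the word long to DMBA and TAM long and short to TAM short without a definition. Tamoxifen activates the Cre recombinase, which is driven from Lgr5 and therefore made in Lgr5-expressing cells, and Cre removes loxP-flanked exons of Ppp2r1a, the scaffold subunit A alpha of the phosphatase PP2A. All groups, control included, carried the floxed and Cre alleles, and all were grown in medium with EGF, Noggin and R-spondin 1, so that the counts of Rspo genes measure the messenger RNA of the cultures and not the ligand supplied. The question for these genes is how ligands, receptors, ligases and stem cell targets differed between DMBA with tamoxifen, either agent alone, and control.

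Several properties of the libraries bear on every comparison. Total counts ran from 8828247 to 10923673 in 8 libraries and were 1592366 and 1915270 in DMBA+TAM, where 3 counts correspond to 1.58 and 1.32 normalized CPM (counts scaled to a common TMM-adjusted library total) against 0.258 to 0.378 elsewhere. Ppp2r1a itself had 123 and 129 normalized CPM in control, 167 and 152 in DMBA, 130 and 147 in TAM short, 169 and 157 in TAM long, and 129 and 133 in DMBA+TAM; counts are summed over all exons, so this gives no check of the deletion. The 9 epithelial markers (Krt8, Epcam and others) summed to between 12600 and 21800 normalized CPM in the other groups, but to 31.1 and 18.5 in DMBA+TAM, with 0 and 1 of the 9 at 0, which goes against the label of intestinal organoid. In those libraries 12 markers of crypt fibroblasts summed to 31200 and 32100 against 766 to 2220 elsewhere, 6 endothelial markers to 593 and 554 against 83.9 to 122, and 6 immune markers to 3360 and 3340 against 93.2 to 271. Against control, 10 of 12 fibroblast, 5 of 6 endothelial and 4 of 6 immune markers were higher there, beside 29% of all genes tested. Foxl1 (log2 -2.68), Grem1 (-1.4) and the T cell gene Cd3e (-8.76, a fitted value that depends on the prior count) were lower, beside 35.3% of all genes. In both DMBA+TAM libraries 2 of the 6 immune markers were at 0. Small intestine markers (8 genes) summed to 18000 to 23100 in control and TAM short and to 18.5 to 289 in DMBA and TAM long, while 5 colon markers summed to 202 to 311 and to 2830 to 12100; DMBA+TAM held little of either, 1.05 and 3.08 for small intestine and 6.85 and 7.03 for colon. Groups follow the sample descriptions, whereas the sample titles read NS for control, NL for DMBA, DSS_S for TAM short, DSS_L for TAM long and Lgr5 for DMBA+TAM and are not explained; the titles could be read as another design, so every treatment named here is the treatment as described in the labels. DMBA or TAM long therefore cannot be told apart from this segment difference when set against control. TAM short also differed from control in 5 of the 8 small intestine markers (1 higher, 4 lower), beside 6.52% and 7.8% of all genes. The higher marker, Fabp6, stood at 8390 ± 789 normalized CPM in TAM short and 1.53 ± 1.82 in control (SD, n = 2). Set against control, TAM short therefore cannot be told apart from this marker difference either. In such bulk libraries a cell type at a lower share cannot be told apart from less RNA of a gene per cell. Nothing in the labels says that the 2 libraries of a group came from separate cultures or animals, and p-values measure the spread between these libraries.

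The promoter windows of 4 of the genes are shown first, as 2 pairs of the same role: the stem cell genes Olfm4, whose count spanned the widest range, and Ascl2, and the receptors Lgr4 and Lgr6, which differed in opposite directions in DMBA+TAM. Each run is the 250 bases before the start of the gene in RefSeq on GRCm38.p6, written from 5′ to 3′ on the strand of the gene, and capitals mark a TATAA match.
Olfm4, chr14:80000052-80000301, plus strand: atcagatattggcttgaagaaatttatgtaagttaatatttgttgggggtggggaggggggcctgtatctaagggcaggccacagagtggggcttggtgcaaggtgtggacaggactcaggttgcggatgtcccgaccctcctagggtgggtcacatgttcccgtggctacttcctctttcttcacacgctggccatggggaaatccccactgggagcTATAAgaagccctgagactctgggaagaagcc
Ascl2, chr7:142969265-142969514, minus strand: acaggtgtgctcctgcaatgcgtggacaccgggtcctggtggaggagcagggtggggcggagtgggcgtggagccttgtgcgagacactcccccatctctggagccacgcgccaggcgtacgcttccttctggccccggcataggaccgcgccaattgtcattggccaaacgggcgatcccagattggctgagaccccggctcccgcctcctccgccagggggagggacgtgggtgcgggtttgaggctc
Lgr4, chr2:109917397-109917646, plus strand: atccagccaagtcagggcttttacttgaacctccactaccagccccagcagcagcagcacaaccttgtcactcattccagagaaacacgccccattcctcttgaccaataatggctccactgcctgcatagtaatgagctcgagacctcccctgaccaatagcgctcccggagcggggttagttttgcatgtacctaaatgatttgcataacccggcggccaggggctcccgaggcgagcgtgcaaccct
Lgr6, chr1:135105277-135105526, minus strand: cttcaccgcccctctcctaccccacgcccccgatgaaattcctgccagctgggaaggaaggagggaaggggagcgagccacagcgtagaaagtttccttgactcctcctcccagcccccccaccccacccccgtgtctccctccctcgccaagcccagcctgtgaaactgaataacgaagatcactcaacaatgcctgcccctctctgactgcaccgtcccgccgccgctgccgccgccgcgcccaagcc
Windows were found for 6 of the 10 genes (7 windows, as Rnf43 had 2). Olfm4 held 4 CpG dinucleotides and 54% G or C, and the other 3 printed windows held 19 (Ascl2), 10 (Lgr4) and 16 (Lgr6), against a median of 6 over 32851 windows. Searched on both strands, the letters TATAA were found in Olfm4 at base -32 from the start, on the strand of the gene, and in none of the other 6 windows, and 22.8% of all windows held them. The letters CTTTGA, a core of TCF/LEF sites, were on neither strand in any of the 7 windows and stood in 13.8% of all windows; this says only that these letters are not there.

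The levels of the 10 genes set beside each other per length differed by 4 orders of magnitude in control. In FPKM, which divides by library total and gene length, Olfm4 stood at 315 ± 23.3 (SD, n = 2 here and for every group mean below), followed by Lgr4 at 41.6 ± 6.53, Rnf43 at 7.41 ± 0.313, Lgr5 at 2.29 ± 0.706, Znrf3 at 1.68 ± 0.545, Ascl2 at 1.01 ± 0.282, Rspo3 at 0.924 ± 0.301, Rspo1 at 0.744 ± 0.81, Rspo2 at 0.281 ± 0.0991 and Lgr6 at 0.03, a single count in each library. Control libraries did not overlap between Olfm4, Lgr4, Rnf43 and Lgr5, but Lgr5 overlapped Znrf3, Ascl2 overlapped Rspo3, Rspo3 overlapped Rspo1 and Rspo1 overlapped Rspo2. In DMBA+TAM the order was Lgr4 at 12.1 ± 0.304 FPKM, Lgr5 at 8.04 ± 3.39, Lgr6 at 3.33 ± 0.433 and Znrf3 at 1.52 ± 1.28, with the other 6 genes under 1. The deposited FPKM of Lgr4, Lgr5 and Lgr6 rest on lengths of 2858, 2406 and 3285 bases where the table lists 5060, 4793 and 6675, and those of Rnf43, Znrf3 and Rspo1 on 2241, 4086 and 1140 where it lists 4310, 6311 and 1834. With the listed lengths the control means were 23.5 for Lgr4, 3.85 for Rnf43, 1.15 for Lgr5, 1.09 for Znrf3, 0.462 for Rspo1 and 0.0148 for Lgr6, so levels between genes are approximate, although their order in control stayed as given.

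**Figure D1:**
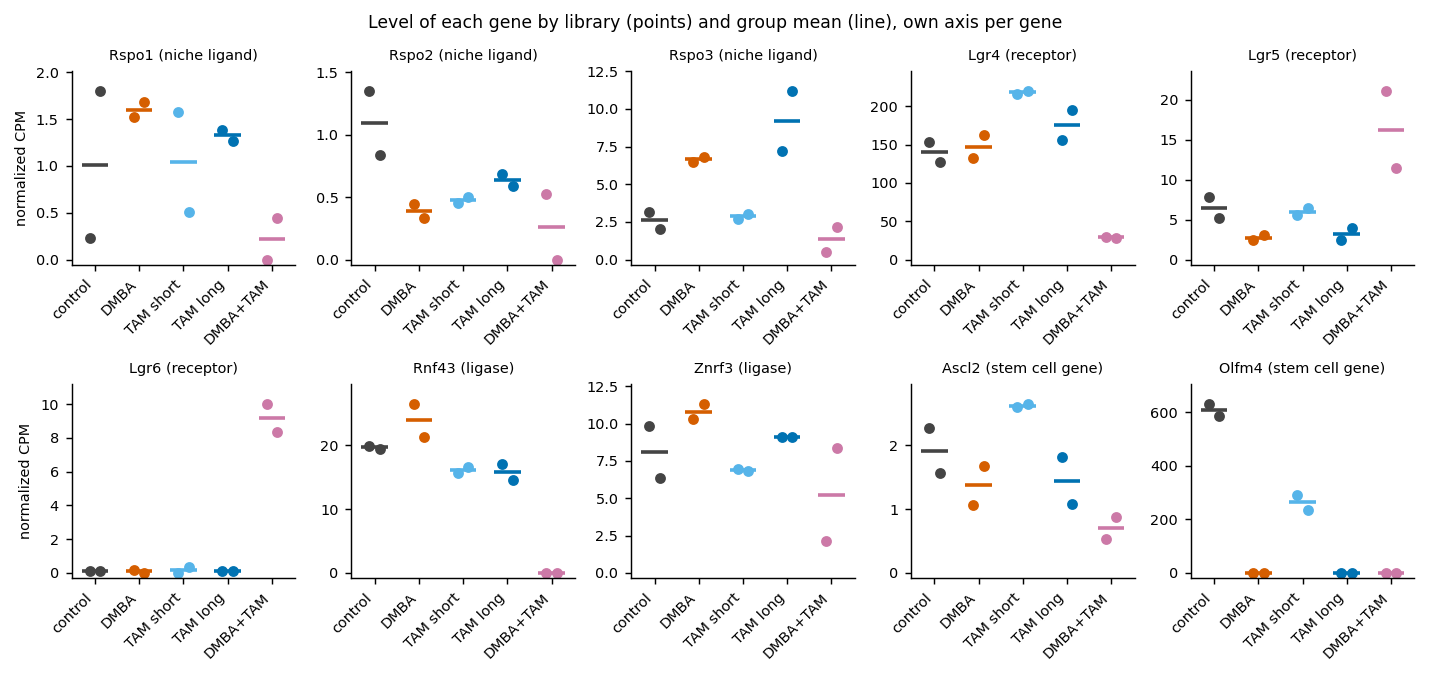
Normalized CPM of the 10 genes (vertical axis, its own scale per gene) in each of the 10 libraries (points) by group, with the group mean as a line. Lgr6 is above 8 in both DMBA+TAM libraries and under 0.4 elsewhere, Rnf43 is at 0 in DMBA+TAM, and Olfm4 is above 200 in control and TAM short only.

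edgeR called 5 of the 9 genes tested between DMBA+TAM and control, with Lgr5 and Lgr6 higher (2) and Lgr4, Rnf43 and Olfm4 lower (3) in DMBA+TAM, where 29% of all 16179 genes tested were higher and 35.3% lower. The same 2 were higher and 3 lower against DMBA (Rspo3 in place of Olfm4; background 25.2% and 29.9%) and against TAM long (again Rspo3; 25.3% and 29.9%). Against TAM short, 2 were higher and 4 lower (Lgr4, Rnf43, Ascl2 and Olfm4), with 29.3% and 33.8% of all genes. DMBA differed from control in Rspo3 (higher), Lgr5 and Olfm4 (lower), with 24.5% of all genes higher and 23.3% lower, and TAM long from control in the same 3 genes in the same directions, with 23.2% and 22.8%. TAM short was higher than control in Lgr4 and lower in Olfm4, with 6.52% and 7.8%. For the interaction of DMBA and TAM long, which asks whether the difference of DMBA+TAM from TAM long equals that of DMBA from control, 3 of the 9 were higher (Lgr5, Lgr6 and Olfm4) and 3 lower (Rspo3, Lgr4 and Rnf43), with 21.6% and 26.5% of all genes. The shares of the 9 genes are near these backgrounds in most comparisons, and the 4 comparisons of DMBA+TAM share its libraries. Lgr6 passed the filter only through DMBA+TAM. Its higher calls in comparisons with that group are therefore a description and cannot be set against the backgrounds. Over the 9 genes the log2 fold changes had a median of -1.4 with control as the baseline, -0.99 with DMBA, -1 with TAM long and -1.85 with TAM short, beside medians over all genes of -0.17, -0.14, -0.14 and -0.14; it was 0.07 (all genes 0.07) for DMBA, -0.3 (0.05) for TAM long and 0.08 (-0.04) for TAM short against control. Scaling by library size in place of TMM moved the median of all genes by 0.49, 0.18, 0.17 and 0.4 in the 4 comparisons of DMBA+TAM in the same order, by 0.3 in DMBA and by 0.32 in TAM long against control. With it the higher share of all calls went from 45.1% to 62.4% for DMBA+TAM against control, from 46.4% to 61.4% against TAM short, from 51.2% to 71.1% for DMBA, from 50.5% to 72% for TAM long and from 45.5% to 58.6% for TAM short against control.

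Of the ligands, Rspo3 had the highest mean FPKM in every group and was the only one edgeR called in the 8 comparisons. Rspo2 was not tested. In single libraries Rspo1 exceeded Rspo3 in control 2 (1.32 against 0.711 FPKM) and in TAM short 1 (1.25 against 1.02). Rspo3 had 3.16 and 2.04 normalized CPM in control, 6.51 and 6.84 in DMBA, 2.71 and 3.02 in TAM short, 7.23 and 11.2 in TAM long, and 0.527 and 2.2 in DMBA+TAM (1 and 5 counts). All DMBA and TAM long libraries were above all others, and DMBA+TAM overlapped control. Rspo3 rose in DMBA by 1.35 on the log2 scale (SE 0.37, edgeR adjusted p = 0.0137) and in TAM long by 1.81 (SE 0.37, adjusted p = 0.00293) over control. Without control 2 the DMBA value was 1.06 (adjusted p = 0.121; range over its alternatives 0.00108 to 0.341), and with counts thinned to the smallest library it was 0.75; thinned, the TAM long value was 1.47 (adjusted p = 0.054, the highest over its alternatives, from 3.83e-06). In DMBA+TAM it was lower than in DMBA by a log2 fold change of -2.21 (SE 0.54, adjusted p = 0.00642) and than in TAM long by -2.67 (SE 0.53, adjusted p = 0.00181). Both passed in all 12 alternatives, and their size turned on the DMBA+TAM libraries: without DMBA+TAM 1 they were -1.6 and -2.06, and without DMBA+TAM 2 -3.63 and -4.09 (adjusted p over the alternatives 6.47e-05 to 0.0486 and 4.61e-07 to 0.0158). Against control (-0.86, SE 0.6, adjusted p = 0.237) and TAM short (-0.99, SE 0.6, adjusted p = 0.173) the difference did not pass the threshold, on 6 counts in DMBA+TAM.

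The 6 smooth muscle markers (Myh11, Tagln, Acta2, Des and others), genes of the contractile apparatus, moved with Rspo3 in the comparisons where Rspo3 passed the threshold. Their summed level was 2070 and 1750 normalized CPM in control, 2280 and 1210 in TAM short, 12000 and 7140 in DMBA, 8340 and 12800 in TAM long, and 1460 and 1600 in DMBA+TAM, and none of the 6 was at 0 in any library. Each of the 6 exceeded control in DMBA and also in TAM long (edgeR), beside 24.5% and 23.2% of all genes. All 6 were lower in DMBA+TAM when set against DMBA (median log2 fold change -3.72) and against TAM long (-3.86), beside 29.9% of all genes in each. The part of these markers in the Rspo3 result was not tested. The summed crypt fibroblast markers were highest in DMBA+TAM, the group with the lowest mean of Rspo3, but 2 of the 12 went the other way: Foxl1, a transcription factor of telocytes, and Grem1, a BMP antagonist, were lower in DMBA+TAM than in DMBA (-2.55 and -1.75, adjusted p = 0.0405 and 0.0159) and than in TAM long (-3.19 and -1.76, adjusted p = 0.0109 and 0.0154). Rspo3 lies on chromosome 10 (29453109 to 29535867, minus strand) and shares 404 exon bases with an antisense gene, Gm48159, so that without strand-specific counting reads of the pair could not be separated.

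Rspo1 and Rspo2 were near the limit of detection. Counts of Rspo1 were 2 and 15 for control, 17 and 15 for DMBA, 14 and 4 in TAM short, 16 and 13 in TAM long, and 0 and 1 in DMBA+TAM. Its control libraries spanned the normalized values of DMBA, TAM short and TAM long, and no comparison with control passed the threshold (log2 -2, SE 1.59, adjusted p = 0.297 for DMBA+TAM). Against DMBA, DMBA+TAM passed in both limma fits (-1.03 on log2(FPKM + 1), adjusted p = 0.031, and -2.73 on log2(FPKM + 0.1), adjusted p = 0.0394) but not in edgeR (-2.66, adjusted p = 0.154; range over its alternatives 0.031 to 0.414). The interaction of DMBA and TAM long likewise passed in both limma fits (-1.46 and -3.83, adjusted p = 0.0333 and 0.0459) and without control 2 (-5.15, adjusted p = 0.0298), but not in edgeR with all libraries (-3.06, adjusted p = 0.165; range 0.0298 to 0.384). In simulated counts for another comparison, DMBA+TAM against control, 21.9% of the calls of limma on log2(FPKM + 1) were false. There 200 of 16179 genes were changed, where edgeR called 8917 in the data against DMBA and 7792 for the interaction. The simulated share therefore does not carry over to the Rspo1 values. Counts of Rspo2 were 12 and 7 for control, 5 and 3 for DMBA, 4 and 4 in TAM short, 8 and 6 in TAM long, and 1 and 0 in DMBA+TAM. Its highest normalized CPM were the 1.35 and 0.841 of control; the ratio of DMBA+TAM to control, 1 count against 19, was 0.217 with an exact 95% counting interval of 0.00522 to 1.36, so that a difference from control was not detectable at the depth of DMBA+TAM. DMBA to control, 8 counts against 19, was 0.359 (0.136 to 0.859), an interval under 1 that covers counting error only. Rspo4, the remaining ligand of the family, had no count in any library.

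The receptors parted in DMBA+TAM: Lgr4 was lower and Lgr5 and Lgr6 were higher than in every other group. Lgr4, the broadly expressed member that epithelial cells use along the crypt, had 153 and 127 normalized CPM in control, 132 and 163 in DMBA, 216 and 220 in TAM short, 156 and 195 in TAM long, and 29.5 and 28.6 in DMBA+TAM. The DMBA+TAM libraries lay far under all others, and control and DMBA overlapped. TAM long against control did not pass (0.32, adjusted p = 0.112), but did with library size scaling (0.64, adjusted p = 0.00524) and in both limma fits (0.62 and 0.64, adjusted p = 0.00692 and 0.00769; range over its alternatives 0.00524 to 0.569). From control to DMBA+TAM the log2 fold change was -2.27 (SE 0.18, adjusted p = 2.2e-06), from DMBA it was -2.35, from TAM long -2.59 and from TAM short -2.91, and it kept its direction and call in all 12 alternatives of each. All 9 epithelial markers were lower in the same 4 comparisons, with medians from -9.54 to -9.23, beside 29.9% to 35.3% of all genes. The part of the epithelial markers in this fall of Lgr4 was not tested. TAM short was higher than control by 0.64 (SE 0.15, adjusted p = 0.0224), 218 ± 3.16 against 140 ± 18.7 normalized CPM, and this did not pass when any of the 4 libraries was left out (control 1, 0.78; control 2, 0.51; TAM short 1, 0.65; TAM short 2, 0.62; adjusted p from 0.054 to 0.185). Of the 8 small intestine markers, 1 was higher and 4 were lower in the same comparison, beside 6.52% and 7.8% of all genes. The part of these markers in the Lgr4 value was not tested.

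Lgr5, the marker of cycling crypt base stem cells, had 7.79 and 5.17 normalized CPM in control, 2.41 and 3.03 in DMBA, 5.52 and 6.42 in TAM short, 2.41 and 3.92 in TAM long, and 21.1 and 11.4 in DMBA+TAM. Both DMBA+TAM libraries were above all others, and both DMBA and both TAM long libraries were under all of control and TAM short. The DMBA+TAM values rest on 40 and 26 counts. Lgr5 rose over control by 1.31 (SE 0.38, adjusted p = 0.0117), over DMBA by 2.57 (SE 0.4, adjusted p = 0.000418), over TAM long by 2.35 (SE 0.39, adjusted p = 0.000628) and over TAM short by 1.43 (SE 0.38, adjusted p = 0.00789). Against control the value was 1.02 without control 2 (adjusted p = 0.0915) and 0.79 without DMBA+TAM 1 (adjusted p = 0.15; range over its alternatives 0.000847 to 0.15). Against TAM short it was 0.91 without DMBA+TAM 1 and 1.3 without TAM short 1 (adjusted p = 0.105 and 0.0574; range 0.000256 to 0.105). The ratio of its normalized total to that of control was 2.43 (exact 95% counting interval 1.76 to 3.32).

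Lgr5 fell in DMBA by 1.26 on the log2 scale (SE 0.38, adjusted p = 0.0211) and in TAM long by 1.04 (SE 0.37, adjusted p = 0.0433) against control. The DMBA value lost the call in 6 of its 13 alternatives (adjusted p over all of them 0.000999 to 0.605). It was -0.94 without control 1, -1.12 without DMBA 1, and -0.96 with library size scaling (edgeR adjusted p = 0.0602). With thinned counts it was -0.46 (edgeR adjusted p = 0.605). On log2(FPKM + 1) and log2(FPKM + 0.1) it was -0.58 and -0.88 (limma adjusted p = 0.132 and 0.0991). For TAM long it was -0.72 without control 1, -1.31 without control 2, -0.73 without TAM long 1 and -0.73 with library size scaling, none of which passed; 9 of its 13 alternatives lost the call, DESeq2 among them (-1.04; adjusted p over its alternatives 0.00673 to 0.395). Proliferation genes (Top2a, Mki67, Pcna, Mcm2, Ccnb1 and Bub1) were lower in 6 of 6 cases in both of these comparisons, and also in DMBA+TAM against control. The share of all genes that edgeR called lower than control was 35.3% for DMBA+TAM, 23.3% for DMBA and 22.8% for TAM long. The proliferation genes summed to 1020 and 963 normalized CPM in control, 326 and 422 in DMBA, and 767 and 721 in TAM short. TAM long had 389 and 399, and DMBA+TAM had 251 and 321. Lgr5 was highest in the 2 libraries where this sum was lowest, although 321 in DMBA+TAM 2 lay close to 326 in DMBA 1. Against DMBA, edgeR called 2 of the 6 lower in DMBA+TAM (median log2 fold change -0.21). Against TAM long it called 1 (median -0.24). In each, 29.9% of all genes were lower.

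Lgr6, best known from stem cells of skin and hair follicles, had 19 and 19 counts in DMBA+TAM (10 and 8.35 normalized CPM) and 0 to 3 counts in each of the other 8 libraries, 9 counts in all. The DMBA+TAM libraries did not overlap any other despite holding the fewest reads. The ratio of normalized totals was 78.2 against control (38 against 2 counts, exact 95% counting interval 20.2 to 669), 91.7 against DMBA (23.7 to 785), 99.3 against TAM long (25.7 to 850) and 51 against TAM short (16.2 to 258). Because Lgr6 entered the test only through the group where it was high, its edgeR call is given as a description and not as support for the difference.

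Within a library, where scaling does not enter, the make-up of the receptor family changed. Lgr4 took 94.3% and 95.3% of the summed FPKM of the 3 receptors in control, 97.8% and 97.8% in DMBA, 97.1% and 96.5% in TAM short, 98.1% and 97.6% in TAM long, and 46.6% and 57.8% in DMBA+TAM. Lgr5 took 39.6% and 27.5% in DMBA+TAM and 1.81% to 5.68% elsewhere, and Lgr6 took 13.8% and 14.7% against at most 0.144%. The ratio of Lgr4 to Lgr5 was 16.6 and 20.7 in control, 46.2 and 45.3 in DMBA, 32.9 and 28.9 in TAM short, 54.4 and 41.8 in TAM long, and 1.18 and 2.1 in DMBA+TAM (18.7, 23.3, 52, 51, 37, 32.5, 61.2, 47.1, 1.33 and 2.37 with the lengths listed in the table). Control and DMBA+TAM thus lay at the low end of this ratio and DMBA and TAM long at the high end, with no overlap between groups other than DMBA and TAM long.

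**Figure D2:**
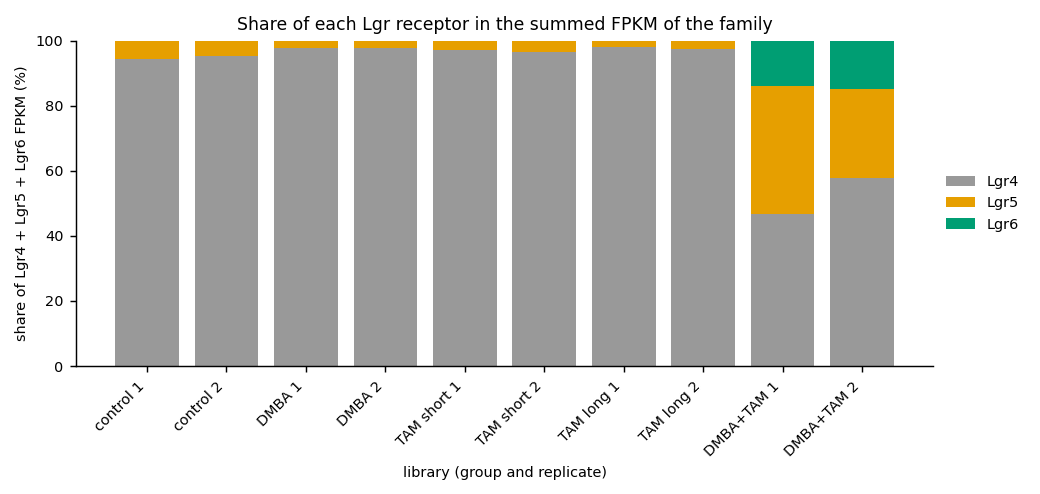
Share of Lgr4, Lgr5 and Lgr6 (stacked bars, percent of their summed FPKM) in each of the 10 libraries. Lgr4 holds 94.3% or more in 8 libraries and 46.6% and 57.8% in DMBA+TAM, where Lgr6 holds 13.8% and 14.7%.

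The ligases differed from each other in DMBA+TAM. Rnf43 had 19.9 and 19.4 normalized CPM in control, 26.4 and 21.3 in DMBA, 15.6 and 16.5 in TAM short, 17 and 14.6 in TAM long, and no count in either DMBA+TAM library. With the 0 of DMBA+TAM taken at 3 counts over the group, the level of Rnf43 was lower than in control at least 27.3-fold, at least 33.6-fold lower than in DMBA, at least 22.1-fold lower than in TAM long and at least 22.3-fold lower than in TAM short (edgeR adjusted p from 1.87e-06 to 4.19e-06). The other groups lay between 14.6 and 26.4 and no difference among them that was tested passed the threshold; with library size scaling DMBA was higher than control by 0.6 (adjusted p = 0.0385; range over its alternatives 0.0385 to 0.73).

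Znrf3 was still counted in DMBA+TAM. It had 9.82 and 6.37 normalized CPM in control, 10.3 and 11.3 in DMBA, 6.99 and 6.8 in TAM short, 9.12 and 9.12 in TAM long, and 2.11 and 8.35 in DMBA+TAM (4 and 19 counts). The DMBA+TAM libraries lay on either side of the lowest control library, and no comparison passed the threshold (log2 -0.58, SE 0.44, adjusted p = 0.281 against control). Against DMBA the value was -0.99 (adjusted p = 0.0775), and -1.05 with no filter on low counts (adjusted p = 0.0081; range over its alternatives 0.00476 to 0.401); the interaction also passed with no filter (-1.2, adjusted p = 0.0247; range 0.00683 to 0.343). The comparison with control turned on a single library: without DMBA+TAM 2 the value against control was -1.96 (adjusted p = 0.0102) and without DMBA+TAM 1 it was 0.02 (adjusted p = 0.991, the highest over its alternatives). The same omission of DMBA+TAM 2 gave -2.36 with DMBA as the baseline, -2.11 with TAM long and -1.73 with TAM short, all past the threshold. The FPKM ratio of Rnf43 to Znrf3 was 2.92 to 5.54 in the 8 other libraries and 0 in DMBA+TAM.

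Ascl2, the basic helix-loop-helix factor that maintains crypt stem cells, was low in all groups. The control libraries held 20 and 13 counts (2.26 and 1.56 normalized CPM), with 12 and 15 in DMBA, 23 and 21 in TAM short, 21 and 11 in TAM long, and 1 and 2 in DMBA+TAM (0.527 and 0.879). The normalized values of DMBA+TAM were under those of the other 8 libraries, but those reached only 1.07 to 2.64, close to what 3 counts are worth at the depth of DMBA+TAM. The log2 fold change was -1.4 (SE 0.7, adjusted p = 0.106) against control and -1.85 (SE 0.68, adjusted p = 0.0362) against TAM short, and the latter passed in 3 of its 11 alternatives (adjusted p from 0.0109 to 0.15). It was lost by DESeq2 (-1.81), with library size scaling (-1.45), and without TAM short 1 (-1.89), TAM short 2 (-1.86), DMBA+TAM 1 (-1.58) or DMBA+TAM 2 (-2.31).

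Olfm4, a secreted glycoprotein of the olfactomedin family that marks stem cells of the small intestinal crypt, had the widest range. The control libraries held 5592 and 4890 counts, with 2579 and 1876 in TAM short, 1 and 0 in DMBA, 0 and 3 in TAM long, and 2 and 0 in DMBA+TAM. Control and TAM short lay over 200 normalized CPM and the 6 other libraries at or under 1.05. Control exceeded DMBA by a ratio of 12300 (exact 95% counting interval 2200 to 485000, on 1 count), TAM long by 4440 (1520 to 21500, on 3 counts) and DMBA+TAM by 1270 (352 to 10500, on 2 counts). TAM short was lower than control by a log2 fold change of -1.21 (SE 0.25, adjusted p = 0.0117), 264 ± 38.6 against 609 ± 30.6 normalized CPM. This difference did not pass when any of the 4 libraries was left out (-1.16, -1.26, -1.37 and -1.07 without control 1, control 2, TAM short 1 and TAM short 2; adjusted p from 0.0723 to 0.173). Of the 8 small intestine markers, 7 fell below control in DMBA as in TAM long, beside 23.3% and 22.8% of all genes. In TAM short 4 were lower and 1 (Fabp6, 8390 ± 789 against 1.53 ± 1.82) higher, beside 7.8% and 6.52% of all genes. Apoa1 was at 9370 ± 798 in control, 4210 ± 544 in TAM short, 0.0891 ± 0.126 in DMBA and 0.393 ± 0.418 in TAM long. The part of the 8 markers in the Olfm4 result was not tested. Olfm4 lies on chromosome 14 (80000302 to 80021930, plus strand) and shares 153 exon bases with the long non-coding gene Gm6999, which had no count.

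**Figure D3:**
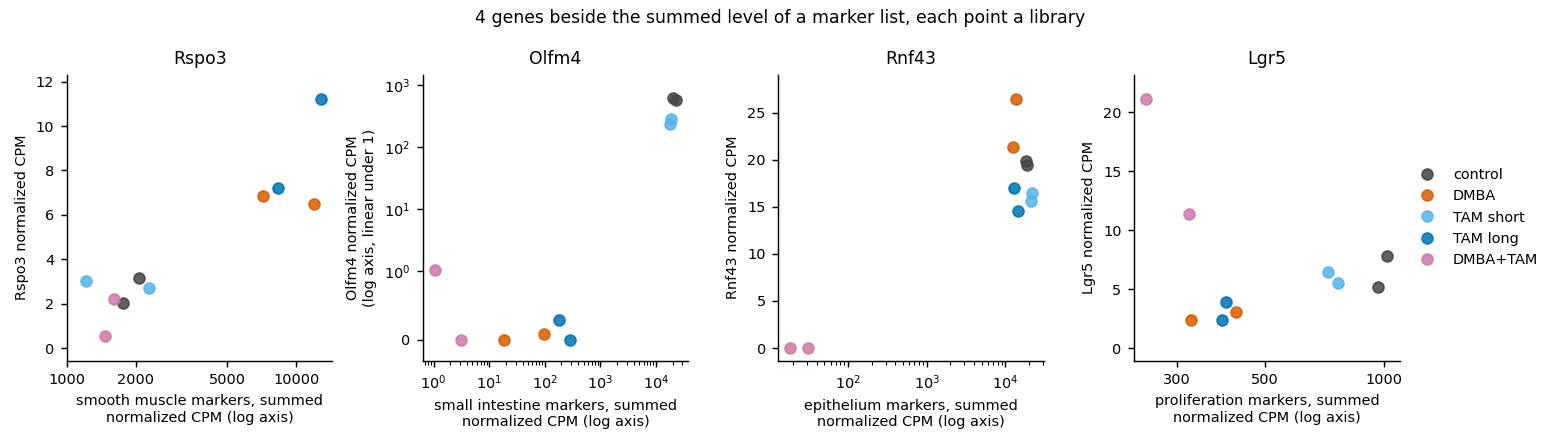
Normalized CPM of Rspo3, Olfm4, Rnf43 and Lgr5 (vertical axes; log axis, linear under 1, for Olfm4) against the summed normalized CPM of smooth muscle, small intestine, epithelium and proliferation markers (log axes), each point 1 of 10 libraries coloured by group. Rspo3 is highest in the 4 libraries with smooth muscle sums of 7140 or more, Olfm4 in the 4 with small intestine sums of 18000 or more, Rnf43 is at 0 in the 2 libraries with epithelial sums of 31.1 and 18.5, and Lgr5 is highest in the 2 with proliferation sums of 251 and 321.

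**Figure D4:**
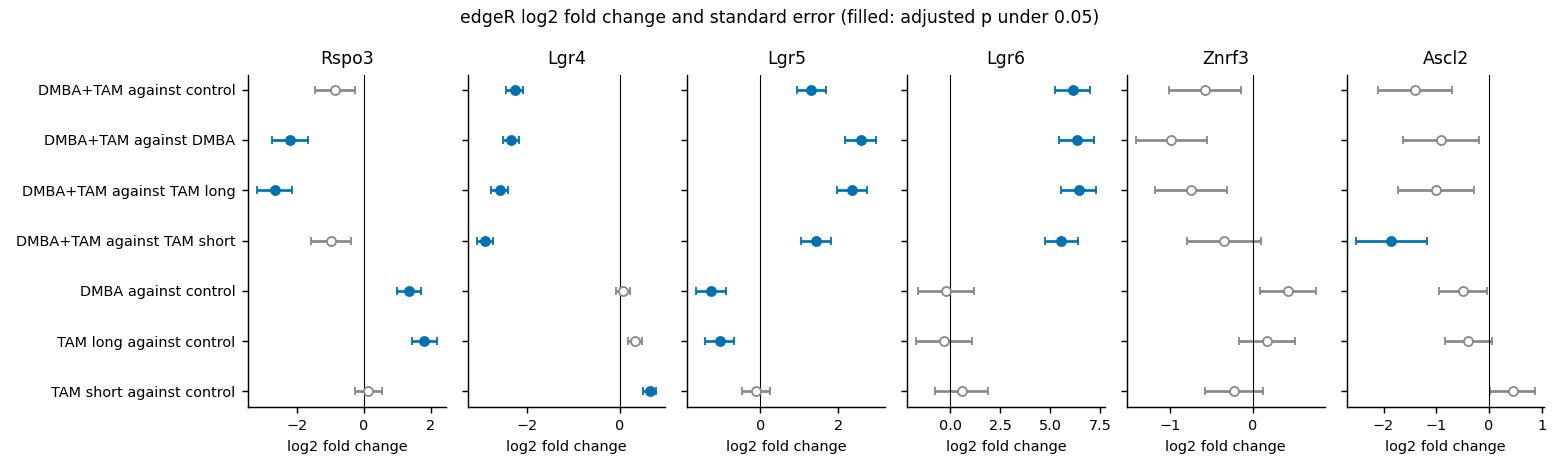
edgeR log2 fold change (points) with its standard error (bars) for Rspo3, Lgr4, Lgr5, Lgr6, Znrf3 and Ascl2 in 7 comparisons; filled points passed the threshold of 0.05 on the adjusted p, and each panel has its own axis. Lgr4 is lower and Lgr5 and Lgr6 are higher in all 4 comparisons of DMBA+TAM.

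Other genes of the R-spondin and Wnt reception pathway were called in both directions in DMBA+TAM against control, at shares near those of all genes (29% higher and 35.3% lower). Of 14 tested, edgeR called 4 above and 4 below control in DMBA+TAM (median log2 fold change -0.05), 2 and 3 in DMBA (24.5% and 23.3% of all genes), 3 and 1 in TAM long (23.2% and 22.8%), and 4 and 0 in TAM short (6.52% and 7.8%). Beta-catenin (Ctnnb1), the transcriptional effector, fell from 933 ± 10.5 normalized CPM to 564 ± 19.3 between control and DMBA+TAM (log2 -0.73, adjusted p = 0.000338), and was at 1260 ± 7.78 in TAM short (0.43, adjusted p = 0.0342). Fzd5, a Frizzled receptor, was at 154 ± 3.31 and 15.1 ± 4.18 (-3.34, adjusted p = 2.22e-07), while Lrp6, the co-receptor, was at 81.5 ± 6.24 in control, 123 ± 6.29 in DMBA+TAM and 153 ± 4.8 in TAM long, higher in all 4 groups than in control. Gsk3b, a kinase of the destruction complex, was at 109 ± 0.574 in control and 97.6 ± 6.2 in DMBA+TAM and passed in none of the comparisons with control.

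Wnt target genes of the crypt were also called in both directions: of 10 tested, edgeR called 2 above and 5 below control in DMBA+TAM (median -0.94, beside -0.17 over all genes; 29% and 35.3% of all genes were called), 5 and 2 in DMBA (median 0.27; 24.5% and 23.3% of all genes), 4 and 2 in TAM long (0; 23.2% and 22.8%), and 2 and 1 in TAM short (-0.02; 6.52% and 7.8%). Cd44, an adhesion receptor also found on mesenchymal and immune cells, rose from 49 ± 4.48 normalized CPM to 245 ± 18.1 between control and DMBA+TAM (log2 2.32, adjusted p = 7.62e-06). Sox9, a transcription factor of crypt progenitors, had a control level of 12.5 ± 0.347 and was at 7.78 ± 1.67 in DMBA+TAM, 77.3 ± 2.09 in DMBA and 53.2 ± 8.39 in TAM long, and changed in all 3. Ephb2, the receptor that positions crypt cells, was at 26.1 ± 2.95 in control and 11.2 ± 4.67 in DMBA+TAM (-1.2, adjusted p = 0.00535). Ccnd1, cyclin D1, was at 91.6 ± 30.2 in control and 196 ± 6.9 in TAM short (1.1, adjusted p = 0.0291). The summed level of the 11 targets ran from 221 to 383 over the 10 libraries, and DMBA+TAM (383 and 361) overlapped DMBA and TAM short.

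Of 7 other crypt stem cell genes, edgeR called 1 above and 2 below control in DMBA+TAM (median -0.42), against the same 29% and 35.3% of all genes. The higher gene was Igfbp4, which encodes a secreted binding protein of insulin-like growth factors and stood at 39.7 ± 1.93 normalized CPM in the control and at 1910 ± 607 in DMBA+TAM (log2 5.59, adjusted p = 3.9e-08). Prom1, which encodes the surface protein CD133, had a control level of 75.9 ± 3.44 and was at 1.98 ± 0.93 in DMBA+TAM, 383 ± 19.9 in DMBA and 603 ± 39.4 in TAM long, and Cdca7 was at 44.3 ± 8.14 in control and 5.05 ± 0.305 in DMBA+TAM; both were lower in DMBA+TAM. Cdk6 was at 33.6 ± 7.88 in control and 24.6 ± 1.95 in DMBA+TAM (-0.45, adjusted p = 0.113). In DMBA 3 of the 7 were higher and 2 lower (24.5% and 23.3% of all genes), in TAM long 3 and 1 (23.2% and 22.8%), and in TAM short 1 and 0 (6.52% and 7.8%). Of 4 genes linked to reserve stem cells, Hopx was at 37.1 ± 1.08 in control and 2.11 ± 0.748 in DMBA+TAM and Lrig1, a feedback inhibitor of ErbB receptors, at 56.3 ± 11 and 21.6 ± 6.73, both lower, Bmi1, a Polycomb protein, at 32.4 ± 1.43 and 48.6 ± 7.22, higher, and Tert at 2.1 ± 0.0936 and 0.879 ± 1.24, which did not pass. The part that the fibroblast, endothelial and immune markers higher in DMBA+TAM have in the Lgr5 result was not tested.

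The genes whose pattern over the 10 libraries was most like each of the 9 tested were listed by Pearson r of log2 normalized CPM among about 11067 genes averaging 50 counts or more, as a description of 10 libraries that share 5 groups. For Rspo3 they were Kcnmb1 (0.986), Bag2 (0.972) and Lipg (0.968), where Kcnmb1 encodes a potassium channel subunit of smooth muscle. For Lgr4 they were Myl12b, Slc35a3 and Ick (0.993 to 0.992), for Lgr5 Srsf1 (0.975), Hnrnpa2b1 (0.968) and Heatr3 (0.963), and for Lgr6 Lrrc15 (0.997), Mef2a (0.992) and Spp1 (0.99). For Rnf43 they included Pigr (0.996), the receptor that carries immunoglobulins across epithelium, and Lad1, and for Znrf3 they were Phkg2 (0.966), Tmem42 and Sh3bgr. Ascl2 was most like Hdgf (0.97), Vta1 and Ubqln1, Olfm4 most like Myrf (0.998), Pdzk1 and Gm15292, and Rspo1 most like an unnamed gene (0.931), Gm11808 and Oxld1.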

How the data were processed

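RNA-seq of 10 organoid libraries was analysed from a single deposited table. The authors mapped reads with TopHat v2.0.12 to GRCm38.p6 and counted reads per gene with HTSeq v0.6.1 (per the submitters' processing notes); the read counts are deposited unnormalized and the FPKM were computed by the authors. The length behind the deposited FPKM is constant per gene and equals the listed length for 47.05% of genes. Whether counting used strand is not given in the sources used here. The table also holds adjusted p-values and fold changes of the authors' own comparisons, which were not used. Of 47074 lines, 5 had no counts.

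The test was the quasi-likelihood test of edgeR 4.0.16 under R 4.3.3 (filterByExpr, TMM factors from 0.8325 to 1.192, a coefficient per group for 5 groups, Benjamini-Hochberg adjustment over 16179 genes, threshold 0.05) in 8 comparisons. Normalized CPM uses TMM totals. A ratio on few counts has an exact 95% interval and a 0 was taken at 3 counts over the group; both cover counting error only. With 2 libraries a group an exact permutation test cannot go below p = 0.333, so none was used. Alternatives were DESeq2 1.42.0, library size scaling, no filter, the replicate number as a block, only the groups compared, limma 3.58.1 on log2(FPKM + 1) and log2(FPKM + 0.1), thinned counts, and leaving out each library; a fit without DMBA+TAM and FPKM with the listed length were added after seeing the data. On simulated counts for DMBA+TAM against control (16179 genes, 200 changed 4-fold), edgeR recovered 91.5% with 4.19% false calls, and limma on log2(FPKM + 1) 94.5% with 21.9%. In the data edgeR called 10396 genes for that comparison, so the simulated shares of false calls do not carry over to it. Replicates correlated with r from 0.975 to 0.994 across genes. Chi-square per degree of freedom was 5.572 to 67.05, so the 2 libraries of each group differed by more than counting error. That spread cannot tell separate cultures from repeated preparations of the same sample.

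The 10 genes and 12 lists (95 genes) were chosen with earlier results of these data known. Named are the 10 genes, up to 4 genes per list with the highest mean normalized CPM (marker lists also by their sums), and the 3 genes most like each tested gene, of which 1 is not reported here. Promoters come from RefSeq on GRCm38.p6. Figures were drawn with matplotlib.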

Additional observations from a re-analysis of the deposited data

Results flagged for a closer look

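The difference between DMBA+TAM and TAM long was set against the difference between DMBA and control by the interaction term in edgeR, and 6 of the 9 genes tested differed between the 2 contrasts, 3 higher and 3 lower, where 21.6% of all genes were higher and 26.5% lower; Lgr6 is among the 6. Lgr5 had an interaction of 3.61 on the log2 scale (SE 0.54, adjusted p = 0.00043): DMBA was under control in both libraries, and DMBA+TAM was over TAM long in both. Rspo3 had -4.02 (SE 0.65, adjusted p = 0.000628), with DMBA over control and DMBA+TAM under TAM long in all libraries. Lgr4 had -2.67 (SE 0.23, adjusted p = 1.07e-05) and rests on the fall from TAM long to DMBA+TAM, since DMBA and control overlapped. Lgr6 had 6.63 (SE 2.11, adjusted p = 0.0257), fitted on 2 counts in each of control, DMBA and TAM long, and entered the test only through DMBA+TAM; it did not pass without control 1 (6.66), control 2 (6.58), TAM long 1 (6.53) or TAM long 2 (6.7), with adjusted p from 3.41e-05 to 1 over its alternatives. Rnf43 had -10.27 and Olfm4 14.88 (adjusted p = 9.68e-06 and 0.00149); these are fitted values that depend on the prior count, because Rnf43 had no count in DMBA+TAM and Olfm4 had 1, 3 and 2 counts in DMBA, TAM long and DMBA+TAM. The Olfm4 value was 9.84 without DMBA+TAM 1 (adjusted p = 1). Control held small intestine markers and DMBA and TAM long held colon markers, so that segment enters the contrast of DMBA with control and cannot be told apart from DMBA there.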

How the results depend on the processing

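Over the 8 comparisons, 807 of the recomputed log2 fold changes of the 9 genes tested kept direction and side of the threshold, 45 lost the call, 16 gained it and 28 changed sign or came out at 0. The number of genes called went from 7735 to 4897 for DMBA and from 7444 to 4616 for TAM long against control with thinned counts, and that of the 9 genes from 3 to 1 in each, as fewer reads remain. TAM short against control moved most: 2317 genes became 4317 with only the groups compared and 1285 thinned, and 669 to 1057 with 1 library left out, when 0 of the 9 genes passed (2 otherwise; 1 with limma on log2(FPKM + 0.1)). For TAM long, 4946 to 5572 genes passed with 1 library left out, the fewest without control 2. Signs turned or values came out at 0, for values that did not pass, with library size scaling in Znrf3 against TAM short (0.05), Lgr6 in DMBA (0.06) and Rnf43 in TAM long (0.01), with both limma fits in Rnf43 in TAM long (0), and thinned in Lgr6 in DMBA, TAM long and TAM short (0 each), Rnf43 in TAM long (0.09), and Rspo3 (-0.34) and Znrf3 (0.58) in TAM short. With 1 library left out, the lone library of its group being assumed to vary like the others, signs turned within these ranges: DMBA+TAM against control, Rspo1 -6.15 to 0.04 and Znrf3 -1.96 to 0.02; Olfm4 -2.15 to 4.91 against DMBA and -3.39 to 4.93 against TAM long; Znrf3 -1.73 to 0.25 against TAM short. In DMBA these were Rspo1 -0.18 to 2.73, Lgr4 -0.09 to 0.21 and Lgr6 -3.03 to 0.55. In TAM long they were Rspo1 -0.44 to 2.47 and Znrf3 -0.11 to 0.51, and in TAM short Rspo1 -0.97 to 2.15, Lgr5 -0.39 to 0.21, Znrf3 -0.51 to 0.11, Rspo3 -0.15 to 0.48 and Lgr6 -3.09 to 1.57. The cause was not tested. The fit without DMBA+TAM, added after seeing the data, kept the calls of the 8 genes it covered (Rspo2 and Lgr6 were not among them) in the 3 comparisons with control.

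Replicate numbers showed little pairing of the libraries in most pairs of groups. Deviations of the same number correlated at 0.29 for DMBA with TAM long and between -0.05 and 0.08 for the other pairs. The source of the 0.29 was not tested. With the replicate block, 10219 genes passed for DMBA+TAM against control (10396 without) and 2322 for TAM short (2317), and the calls lost were Ascl2 against TAM short (-1.84, adjusted p = 0.0535) and Lgr5 in TAM long (-1.03, adjusted p = 0.0539).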

Other observations

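Some listed genes outside the 4 most abundant of their list are named here after their values were seen. Axin2, a negative feedback gene of Wnt signalling, had a control level of 28.4 ± 4.25 normalized CPM (SD, n = 2) and reached 62 ± 3.74 in TAM short (log2 1.13, edgeR adjusted p = 0.00227), 16.1 ± 3.38 in DMBA (-0.82, adjusted p = 0.00389), 12.7 ± 0.52 in TAM long (-1.16, adjusted p = 0.000566) and 8.43 ± 0.736 in DMBA+TAM (-1.75, adjusted p = 7.9e-05). Lgr5 was highest in DMBA+TAM and Axin2 lowest there. Ephb3, an ephrin receptor of the crypt, was at 7.09 ± 0.342 in control and at 23.3 ± 0.452, 20 ± 0.357 and 23.2 ± 3.64 in DMBA, TAM long and DMBA+TAM, higher in all 3. Smoc2, a matricellular protein counted among crypt stem cell genes, was at 46.1 ± 3.46 in control and 46.9 ± 0.797 in DMBA+TAM, and fell in DMBA (22.2 ± 4.08) and TAM long (16.5 ± 3.33). Lef1, a transcription factor of the TCF/LEF family, had no count in DMBA+TAM and a mean of 0.47 to 1.61 normalized CPM in the other groups. Those means are at or under about what 3 counts are worth in DMBA+TAM. edgeR called Lef1 lower in DMBA+TAM than in DMBA, TAM long and TAM short (adjusted p = 0.019, 0.024 and 0.028). Against control it did not pass (adjusted p = 0.12).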
